A study of Mus musculus with 4 samples.

Results

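Scart1 and Scart2 are 2 scavenger receptors of mouse γδ T cells, and this account follows their RNA in γδ T cells sorted from the lung. The count table lists Scart1 under Cd163l1 and Scart2 under 5830411N06Rik, and these 2 rows of 22865 were taken by name. The cells came from 10-week-old female C57Bl/6 mice, either Aire-/- or Aire+/+. Aire drives the expression of proteins of peripheral tissues in the thymic medulla, where developing T cells are screened against them. Cells of both genotypes were viable, CD45+, TCRγδ+, and negative for TCRβ, CD27 and the receptor chains that the labels write as Vg1,2,4,5, and the submitters call them Tgd17, the γδ T cells that make interleukin-17. There were 2 Aire-/- and 2 Aire+/+ libraries, each from 500 cells, prepared by Smart-Seq2, which copies whole transcripts from little RNA. Whether the libraries of a genotype came from separate animals is not stated in the labels, and the spread behind each p-value is that between libraries and may be technical.

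Scavenger receptors of this family are membrane or secreted proteins built from repeated cysteine-rich domains. In cattle and pigs a related set of receptors, the WC1 molecules, is carried by γδ T cells and acts as co-receptor to their antigen receptor. In the mouse, Scart1 and Scart2 are known as surface proteins of interleukin-17-producing γδ T cells, with Scart1 described on cells that use the Vγ6 chain and Scart2 on cells that use Vγ4. The labels do not say which naming system the chains of the gate follow, and 0 γδ receptor segments stood in the table, so the chain used by the sorted cells was not analysed here.

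Both genes lie on chromosome 7, head to tail on the plus strand and 16.1 kb apart (GRCm38, the assembly that mm10 names, GENCODE M21 models). Cd163l1 (ENSMUSG00000025461) spans 140218267 to 140231145 and 5830411N06Rik (ENSMUSG00000054672) spans 140247284 to 140300736. Both are protein-coding and no other gene of that annotation overlaps either. Since the receptors are related, reads could in principle be split between them by the counting. The coding sequences, of 2967 bases for Cd163l1 and 3336 for 5830411N06Rik, were aligned without a penalty for gaps at the ends. They were identical at 2106 of the 2820 bases aligned without a gap (74.7%), and bases opposite gaps were not counted. Their longest exact shared run was 23 bases, and of 3955 different 25-base words in the Cd163l1 transcripts 0 occurred in those of 5830411N06Rik. The most alike stretch of 75 coding bases, shown to let a reader see how far a read could be mistaken, lies in exon 7 of 14 of Cd163l1 (chr7:140224748-140224822) and in exon 10 of 16 of 5830411N06Rik (chr7:140296723-140296797). Capitals mark the 8 bases at which the genes differ, both written 5′ to 3′ on the plus strand.
Scart1: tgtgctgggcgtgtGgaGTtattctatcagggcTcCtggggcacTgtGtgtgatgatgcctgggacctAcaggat
Scart2: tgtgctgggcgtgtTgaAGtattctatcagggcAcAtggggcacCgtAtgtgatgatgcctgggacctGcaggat
No 50-base word of either gene occurred in transcripts of any other annotated gene. How the authors treated reads with mismatches is not given in the sources used here.

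Library totals were 1106891 to 1265239 counts. The defining T cell genes were present in every library: Cd3d, Cd3e and Cd3g, the CD3 chains that carry the antigen receptor to the surface, summed to 1010 and 1087 counts in Aire-/- libraries, against 833 and 1283 in Aire+/+ libraries. Cd4, Cd8a and Cd8b1 of αβ T cells summed to 29 to 42 counts. The libraries also held B cell transcripts, which the gate should remove. Ms4a1, Cd79a and Cd79b together stood at 1.48 and 0.999 times the CD3 chain counts in Aire-/- libraries, against 3.10 and 1.22 times in Aire+/+ libraries, with no marker at 0. The 8 macrophage and monocyte markers summed to 31 and 85 counts in Aire-/- libraries, against 268 and 48 in Aire+/+ libraries, and none was at 0 in all libraries. The 4 natural killer cell markers summed to 432 and 380 counts in Aire-/- libraries, against 538 and 621 in Aire+/+ libraries, with 1 of them, Klra8, at 0 throughout. This sum does not by itself show that natural killer cells were present. The 4 lung epithelial markers summed to 6 and 8 counts in Aire-/- libraries, against 18 and 12 in Aire+/+ libraries. Aire+/+ replicate 1 thus had the highest B cell and macrophage sums of the 4 libraries. In such mixtures a smaller share of γδ T cells and less RNA per cell cannot be told apart. The part of the mixture in the results below was not tested.

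Scart1 was among the most abundant transcripts of these cells. Its counts were 4260 and 4620 in Aire-/- libraries, against 3222 and 4351 in Aire+/+ libraries. By counts it ranked 6th and 5th of 22865 genes in the Aire-/- libraries, against 18th and 5th in the Aire+/+ libraries, so Aire+/+ replicate 1 stood below the other 3. The gene took 0.372% (Wilson 95% interval 0.361 to 0.384) and 0.417% (0.406 to 0.430) of all counts in Aire-/- libraries, against 0.255% (0.246 to 0.264) and 0.377% (0.366 to 0.389) in Aire+/+ libraries. Smart-Seq2 reads are not independent molecules, so these and all later intervals cover counting error only. The totals behind these shares include the most abundant gene of each library. That gene alone held 232831 and 214265 counts in Aire-/- libraries, against 220010 and 187328 in Aire+/+ libraries.

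Scart2 was scarce and uneven. Its counts were 53 and 3 in Aire-/- libraries, against 22 and 12 in Aire+/+ libraries. Both the highest and the lowest value belonged to the Aire-/- pair, and the Aire+/+ values fell between them. Its rank by counts was 3853 and 12021 in Aire-/- libraries, against 7226 and 9012 in Aire+/+ libraries. The Aire-/- libraries differed from each other 17.1-fold in CPM (counts scaled to a common library total, here with edgeR's TMM factors) and the Aire+/+ libraries 1.73-fold. For Scart1 the libraries of a genotype differed 1.12-fold in Aire-/- and 1.43-fold in Aire+/+. The library with the least Scart2, Aire-/- replicate 2, was the one with the most Scart1. The library with the most Scart2, Aire-/- replicate 1, was not the one with the least Scart1, which was Aire+/+ replicate 1.

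**Figure D1:**
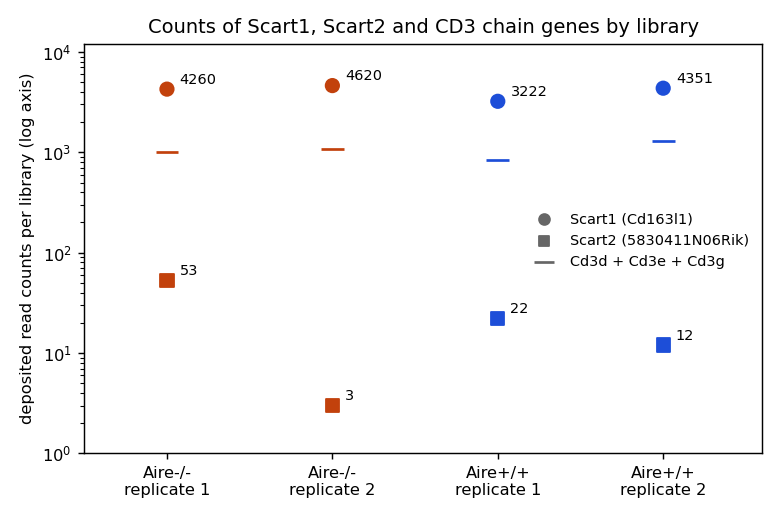
Deposited read counts of Scart1 (circles), Scart2 (squares) and the summed CD3 chain genes Cd3d, Cd3e and Cd3g (dashes) in each library, on a log axis, with Aire-/- in orange and Aire+/+ in blue. Scart1 lies above the CD3 chains in all 4 libraries at 3222 to 4620 counts, and Scart2 runs from 3 to 53 counts.

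**Figure D2:**
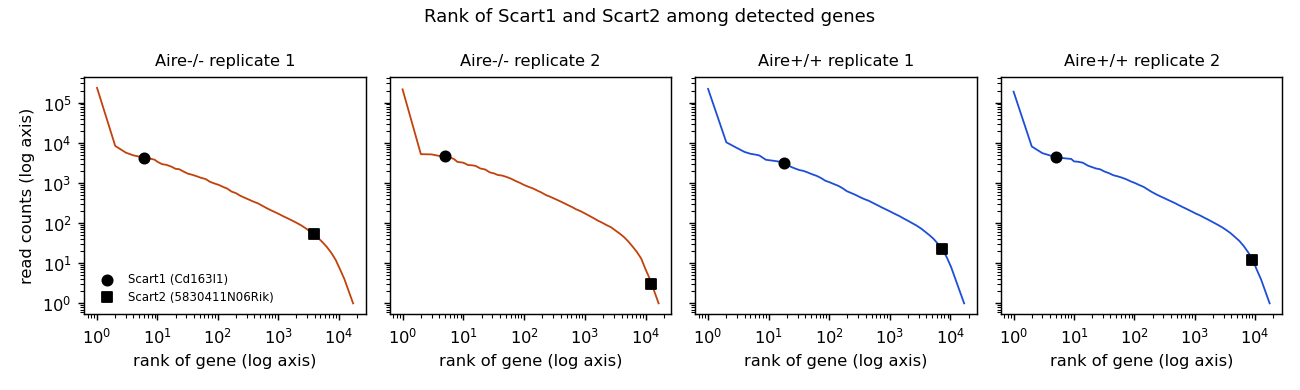
Read counts against rank for the detected genes of each library, both on log axes, with Scart1 as a circle and Scart2 as a square. Scart1 sits at ranks 5 to 18 and Scart2 at ranks 3853 to 12021.

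Long transcripts collect more reads, so levels were also set per kilobase of the longest annotated transcript, 3621 bases for Cd163l1 and 4372 for 5830411N06Rik. On this scale Scart1 stood at 1176 and 1276 counts per kilobase in Aire-/- libraries, against 890 and 1202 in Aire+/+ libraries. It ranked 27th and 23rd of the 21591 genes with a length in Aire-/- libraries, against 54th and 31st in Aire+/+ libraries. Among the genes with a length, those above it in every library numbered 20, of which 11 encode ribosomal proteins. Symbols without a length could not be ranked on this scale, however many counts they had. The other 9, picked after their values were seen, were Actb, Actg1, B2m, Eef1a1, Gm17821, H2-Ab1, Hspa8, Tmsb4x and Tpt1, most of them housekeeping genes, with B2m a subunit of class I and H2-Ab1 of class II molecules. Among 30 genes of the IL-17 γδ T cell program, only Cxcr6, a chemokine receptor of tissue-resident lymphocytes named here after its values were seen, came near it. Scart1 per kilobase was 1.11 and 0.920 times Cxcr6 in Aire-/- libraries, against 1.06 and 1.03 times in Aire+/+ libraries. Per kilobase it was 5.81 and 6.89 times Il17a, the cytokine that names the subset, in Aire-/- libraries, against 5.89 and 6.28 times in Aire+/+ libraries. Scart2 stood at 12.1 and 0.686 counts per kilobase in Aire-/- libraries, against 5.03 and 2.75 in Aire+/+ libraries. Of the 30 program genes only Sox4, named after its values were seen, a transcription factor of developing lymphocytes, lay below it.

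The ratio of Scart1 to Scart2 counts was 80.4 (exact 95% interval 61.3 to 108) and 1540 (527 to 7470) in Aire-/- libraries, against 147 (96.6 to 234) and 363 (207 to 702) in Aire+/+ libraries. Per kilobase it was 97.1 and 1859 in Aire-/- libraries, against 177 and 438 in Aire+/+ libraries. Scart1 exceeded Scart2 in every library, by a ratio that varied most within the Aire-/- pair. Scart2 made up 1.23% and 0.0649% of the counts of both genes in Aire-/- libraries, against 0.678% and 0.275% in Aire+/+ libraries. The genotypes overlapped, and their log2 ratios differed by 0.61 on average (exact permutation test, two-sided, p = 1.0, where 2 against 2 libraries allow no p below 0.333). That difference turned to -1.52 without Aire-/- replicate 2 and to -0.043 without Aire+/+ replicate 1, and reached 2.74 without Aire-/- replicate 1 and 1.26 without Aire+/+ replicate 2.

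Set against the CD3 chains, which T cells carry and B cells lack, the highest Scart1 value was 1.25 times the lowest over the 4 libraries, whereas in CPM it was 1.67 times the lowest. Scart1 stood at 4.22 (exact 95% interval 3.94 to 4.52) and 4.25 (3.98 to 4.55) counts per CD3 chain count in Aire-/- libraries, against 3.87 (3.58 to 4.18) and 3.39 (3.19 to 3.61) in Aire+/+ libraries. The means were 4.23 ± 0.023 in Aire-/- and 3.63 ± 0.337 in Aire+/+ libraries (SD, n = 2 each). The genotypes did not overlap, with Aire-/- higher, as was so in this direction for 6.18% of the 9783 tested genes on this scale. The mean log2 difference was 0.23 (1.17-fold, exact permutation test, two-sided, p = 0.333, the smallest this design allows). The order depended on the chains used. It was lost with Cd3e alone as the denominator, the scarcest of the chains at 89 to 150 counts. There Scart1 stood at 38.4 and 30.8 counts per Cd3e count in Aire-/- libraries, against 36.2 and 36.0 in Aire+/+ libraries. The mean log2 difference was -0.070, and whether the chains themselves differ in their change was not tested. Without Aire+/+ replicate 2 the difference per CD3 chain count was 0.13. The level itself depended on length. Per kilobase of the longest transcripts, Scart1 was 2.53 and 2.57 times the summed chains in Aire-/- libraries, against 2.38 and 2.03 in Aire+/+. The geometric mean over the 4 libraries was 3.92 in counts and 2.37 per kilobase of these transcripts. It was 1.34 per kilobase of the longest protein-coding transcripts.

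Scart2 stood at 52.5 (39.0 to 69.2) and 2.76 (0.568 to 8.09) counts per 1000 CD3 chain counts in Aire-/- libraries, against 26.4 (16.5 to 40.3) and 9.35 (4.82 to 16.4) in Aire+/+ libraries. The Aire+/+ values again lay between the Aire-/- values. The mean log2 difference was -0.39 (exact permutation test, two-sided, p = 1.0) and it turned to 1.74 without Aire-/- replicate 2 and to 0.36 without Aire+/+ replicate 1. It was -2.51 without Aire-/- replicate 1 and -1.13 without Aire+/+ replicate 2.

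**Figure D3:**
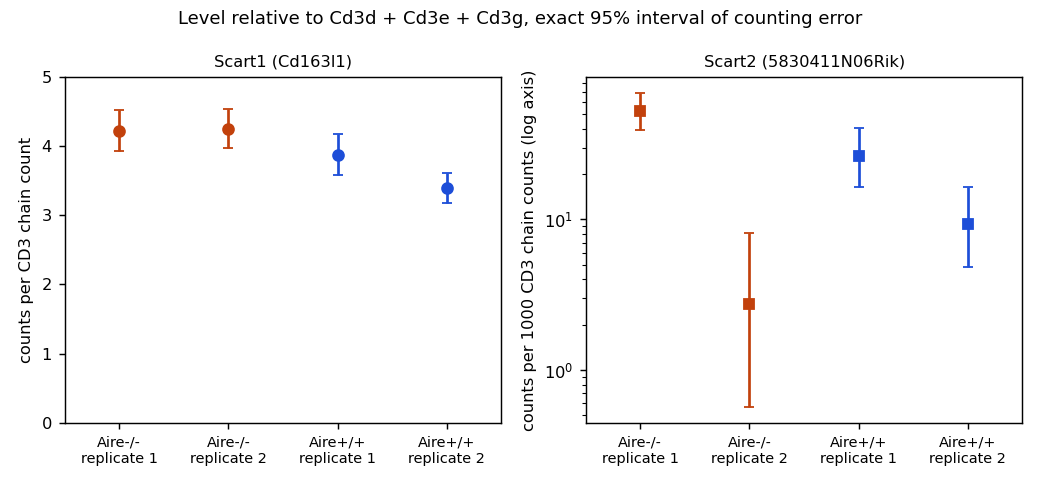
Counts of Scart1 per CD3 chain count (left, axis from 0) and of Scart2 per 1000 CD3 chain counts (right, log axis) in each library, where the CD3 chains are Cd3d, Cd3e and Cd3g and bars are exact 95% intervals of counting error. Scart1 lies between 3.39 and 4.25 in all libraries, while Scart2 runs from 2.76 to 52.5 within the Aire-/- pair alone.

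The design asks whether loss of Aire alters expression in these peripheral cells, and neither receptor passed the test over all genes. Mean CPM of Scart1 was 4124 ± 329 (SD, n = 2) for Aire-/- and 3163 ± 791 (SD, n = 2) for Aire+/+. In single libraries it stood at 3891 and 4356 CPM in Aire-/-, against 2604 and 3723 CPM in Aire+/+, so the genotypes did not overlap, as was so in this direction for 17.1% of the tested genes. The fitted log2 fold change, Aire-/- minus Aire+/+, was 0.38 (approximate SE 0.17, unadjusted p = 0.0436, adjusted p = 0.89, edgeR's quasi-likelihood test with Benjamini-Hochberg adjustment). Higher values at an unadjusted p under 0.05 were found for 2.8% of tested genes, and an adjusted p under 0.05 in either direction for 0.0204%. The value was 0.14 without Aire+/+ replicate 1 and 0.66 without Aire+/+ replicate 2 (adjusted p = 0.062, edgeR). These B cell markers summed to 1369 and 1024 CPM in Aire-/- libraries, against 2087 and 1338 CPM in Aire+/+ libraries. The CD3 chains summed to 923 and 1025 CPM in Aire-/- libraries, against 673 and 1098 CPM in Aire+/+ libraries. The macrophage and monocyte markers summed to 28.3 and 80.2 CPM in Aire-/- libraries, against 217 and 41.1 CPM in Aire+/+ libraries, and the natural killer cell markers to 395 and 358 CPM in Aire-/- libraries, against 435 and 531 CPM in Aire+/+ libraries. Aire+/+ replicate 1, the lowest for Scart1, was thus also the highest for the B cell and macrophage markers and the lowest for the CD3 chains, and the part of these in the Scart1 value was not tested. Library sizes set to the CD3 chain counts gave Scart1 a log2 fold change of 0.22 (adjusted p = 1.00, edgeR), on a scale where the median of all tested genes lay at -0.20 instead of 0.01.

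Mean CPM of Scart2 was 25.6 ± 32.2 (SD, n = 2) for Aire-/- and 14.0 ± 5.31 (SD, n = 2) for Aire+/+. Its single values were 48.4 and 2.83 CPM in Aire-/-, against 17.8 and 10.3 CPM in Aire+/+. Its fitted log2 fold change of 0.87 (approximate SE 0.81, adjusted p = 0.97, edgeR) rested on Aire-/- replicate 1, without which it was -2.26 (adjusted p = 0.69, edgeR). It was 1.77 without Aire-/- replicate 2 (adjusted p = 0.092, edgeR), 1.30 without Aire+/+ replicate 1 and 0.52 without Aire+/+ replicate 2, where a genotype left with 1 library is assumed to vary like the other. The fit follows arithmetic means, in which the 53 counts weigh most, whereas the mean of log2 ratios to the CD3 chains had the opposite sign. limma-voom gave -0.11 (adjusted p = 0.99). The spread estimated by edgeR beyond counting error, as a coefficient of variation, was 0.522 for Scart2, against 0.282 for the trend at its abundance. For Scart1 it was 0.168, against 0.164 for the trend.

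**Figure D4:**
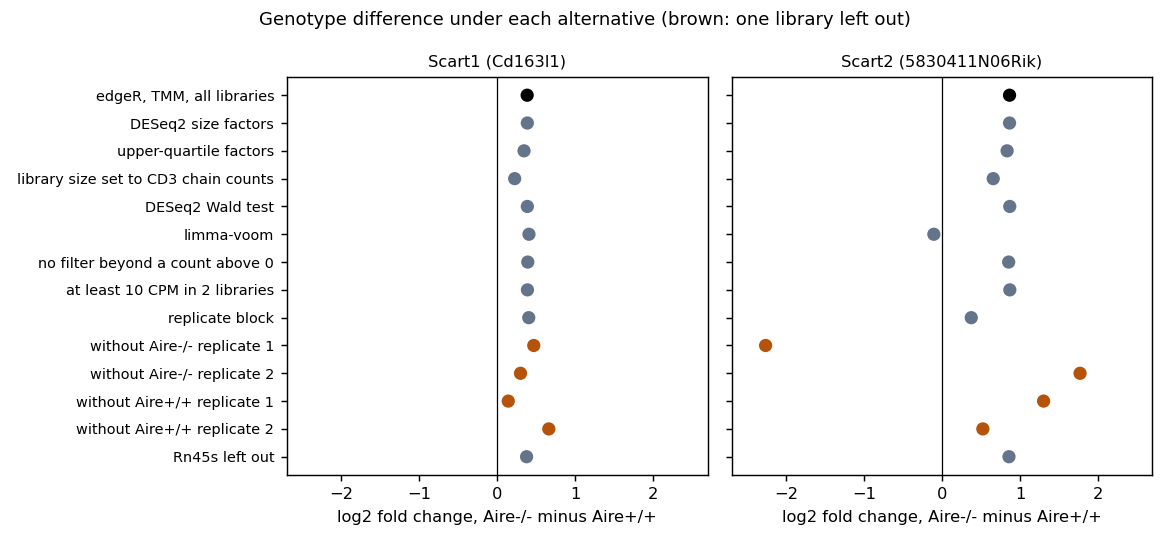
Log2 fold change, Aire-/- minus Aire+/+, of Scart1 (left) and Scart2 (right) under the main analysis (black), other settings (grey) and with each library left out (brown). Scart1 stays between 0.14 and 0.66, and Scart2 runs from -2.26 to 1.77.

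The receptors were also read beside genes that share their domain. The table held 18 other genes of a chosen list of the scavenger receptor cysteine-rich family, of which 6 had enough counts to test. The list need not hold every gene with this domain. The lymphocyte co-receptors of the family were far scarcer than Scart1. Cd5, an inhibitor of antigen receptor signalling, had 28 and 27 counts in Aire-/- libraries, against 20 and 8 in Aire+/+ libraries (log2 fold change 1.13, adjusted p = 0.89, edgeR). Cd6, a co-receptor that binds an adhesion molecule, had 22 and 12 counts in Aire-/- libraries, against 18 and 15 in Aire+/+ libraries (0.20). Lgals3bp, a secreted galectin-binding glycoprotein, was the next most abundant of the listed genes after Scart1. It had 266 and 199 counts in Aire-/- libraries, against 177 and 238 in Aire+/+ libraries (0.31). Loxl2 (0.40) and Loxl3 (0.53), enzymes that crosslink collagen, and Prss12, a protease of neurons (0.59), also lay above 0. Of the 8 tested genes, both receptors included, 8 lay above 0 with a median of 0.46. Over all genes 0 of them passed, with a lowest adjusted p of 0.89 by edgeR. An unadjusted p under 0.05 was found for 2 of the 8, Scart1 itself and Cd5, against 5.57% of all tested genes. Over all 9783 tested genes 4981 lay above 0 and the median was 0.01.

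The other 12 listed family genes had at most 13 counts in any library and were not tested. Among them Cd163, the haemoglobin scavenger receptor of macrophages, had 7 and 2 counts in Aire-/- libraries, against 13 and 5 in Aire+/+ libraries. The macrophage receptors Marco, with 0 to 3 counts, and Msr1, with 2 to 12, and the macrophage-secreted Cd5l, with 0 to 6, were as scarce. Dmbt1 (1 to 4 counts), Srcrb4d (1 to 2), Ssc5d (0 to 3), the ferritin receptor Scara5 (0 to 5), Loxl4 (0 to 8), the membrane proteases Corin (4 to 11) and Hpn (0 to 1) and Hhipl1 (0 in all) made up the rest.

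**Figure D5:**
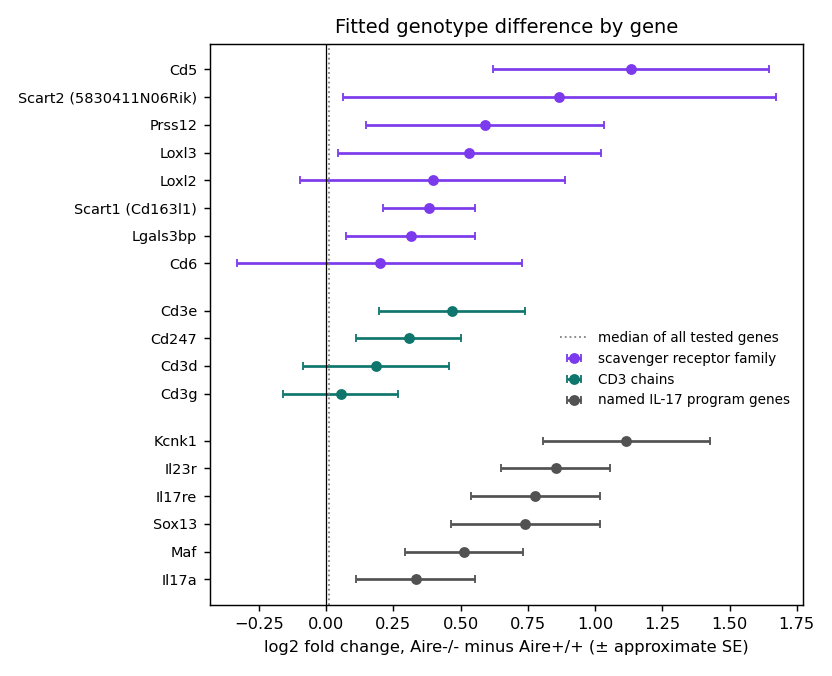
Fitted log2 fold change, Aire-/- minus Aire+/+, with approximate SE bars. Shown are the tested genes of the scavenger receptor family list (violet), the CD3 chains (green) and named genes of the IL-17 program (grey). All points lie right of 0 and none passed an adjusted p of 0.05, with Scart1 at 0.38 and Scart2 at 0.87.

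Genes of the program that these cells share were chosen with earlier results of the data known. Of 30 genes in the list 29 were tested, 28 lay above 0, the median log2 fold change was 0.38, 12 had an unadjusted p under 0.05, against 5.57% of all tested genes, and 0 passed over all genes. Scart1, which is not in that list, had a value of 0.383, against 0.378 for that median. The B cell and macrophage markers, given above, stood highest in Aire+/+ replicate 1 and the natural killer cell markers in Aire+/+ replicate 2, and their part in these values was not tested. The 4 with the smallest p were Il23r, the interleukin-23 receptor chain (0.85), Kcnk1, a potassium channel (1.12), Il17re, a receptor chain for interleukin-17C (0.78), and Sox13, a factor of γδ T17 development (0.74), with adjusted p from 0.61 to 0.89 by edgeR. Maf, a factor that γδ T17 cells require, had a log2 fold change of 0.51 and Il17a one of 0.33. The CD3 chains were at 0.19 for Cd3d, 0.47 for Cd3e, 0.05 for Cd3g and 0.31 for Cd247, with adjusted p of 0.93 or more by edgeR.

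The genes around the receptors were nearly silent. On the side of lower coordinates lie the olfactory receptor genes Olfr522, Olfr523 and Olfr524, with 0 to 3 counts in any library, and on the other side Olfr525, Olfr527 and Olfr60, with 0 to 6 counts. Scart1 was the abundant gene of this stretch, beside its scarce relative and between odour receptor genes with almost no counts. In Aire-/- replicate 2, Scart2 at 3 counts lay below Olfr60 at 6.

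The patterns most like that of Scart1 over the 4 libraries were compared after each gene was centred on its own mean of log2 CPM, among 6666 genes with at least 100 counts in all. Aagab came closest with a root mean square difference of 0.0113, having 121 and 132 counts in Aire-/- libraries, against 91 and 126 in Aire+/+ libraries. Pqlc3 (0.0292), Rab3gap2 (0.0305), A730098P11Rik (0.0308) and Ehbp1l1 (0.0323) followed. These are the closest of many genes over only 4 libraries, and A730098P11Rik had 20 to 31 counts. Counting error was not taken into account, so the small differences do not show that these genes vary together with Scart1. In all, 114 of the compared genes lay within 0.1 of Scart1. For Scart2 the nearest were Zfp81 (0.590), 2310067B10Rik (0.593) and Tdrkh (0.653), and 0 genes lay within 0.1. This distance grows with the range of a gene over the libraries. The centred values ran from -1.73 to 1.72 for Scart2, at 3 to 53 counts, and from -0.46 to 0.28 for Scart1. The numbers of genes within 0.1 therefore cannot be compared between the receptors, and they do not show that the Scart2 pattern is its own. No gene stood directly above or below either receptor in rank per kilobase in more than 1 library.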

How the data were processed

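The deposited table gives raw counts by gene symbol in 4 library columns, per the file headers. TopHat2 2.0.10, Cufflinks 2.2.1 and mm10 are named, without role, per the submitters' processing notes. Which annotation was used, and how strand and shared reads were treated, is not given in the sources used here. The test was edgeR 4.0.16 (R 4.3.3) on all 4 libraries and the whole table: filterByExpr (minimum count 10, minimum total 15), TMM, quasi-likelihood F test on genotype alone, and Benjamini-Hochberg adjustment over the 9783 genes left, both receptors included. Calls used an adjusted p under 0.05. The SE is approximate, from the log2 fold change and the F statistic.

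Shares carry Wilson and ratios exact binomial 95% intervals. Lengths, coordinates and sequences came from GENCODE M21, which matched 21591 of 22865 symbols. Coding sequences were aligned globally, with gaps at the ends not penalised, with Biopython 1.88. Alternatives used limma 3.58.1 and DESeq2 1.42.0. Values were computed in Python 3.11.15 with pandas 2.3.3, numpy 2.4.6 and scipy 1.17.1, and drawn with matplotlib 3.10.9. The test was checked on simulated counts. Named genes are the 2 receptors, the CD3 chains, the scavenger receptor family, the IL-17 program genes with the 4 smallest p plus Sox13, Maf, Il17a and Il23r, the nearest 3 genes on each side, and those most alike in pattern. Named outside that rule, after their values were seen, are Cxcr6, Sox4 and the genes more abundant than Scart1. The markers of other cells were named as checks of the sort. The receptors and lists were chosen with earlier results of these data known. Some list members are counted but not reported here by name. Protein sequences were not used here.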

Additional observations from a re-analysis of the deposited data

How the results depend on the processing

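Scart1 kept a positive log2 fold change without a call under all 13 alternatives, at 0.14 to 0.66 with a library left out and 0.22 to 0.41 otherwise. Per CD3 chain count its difference turned to -0.070 with Cd3e alone and ran from 0.13 to 0.32 with a library left out. Scart2 turned to -0.11 with limma-voom and ran from -2.26 to 1.77 with a library left out. Per CD3 chain count it ran from -2.51 to 1.74, and the Scart1 to Scart2 log2 ratio from -1.52 to 2.74, in the same way. Neither receptor was called under any alternative, and the cause of these turns was not tested.

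Over all genes, 0 were called higher and 2 lower. Genes called higher numbered 21 with no filter beyond a count above 0 and 5 to 21 with a library left out. Genes called lower numbered 26 with no such filter, 1 with limma-voom, 4 with library sizes set to the CD3 chains and 6 to 42 with a library left out. The labels do not say that equal replicate numbers share an animal or a day, and same-numbered libraries did not deviate together (r = -0.077 over genes). With the replicate number as a block, 2 genes were called higher and 4 lower, with Scart1 at 0.40 and Scart2 at 0.37. Lengths of the longest protein-coding transcripts, tried after seeing the data, left the directions as they were. They put Scart1 at a geometric mean of 1.34 relative to the CD3 chains, against 2.37 with the longest transcripts. At 3 to 53 counts, depth limits every statement on Scart2.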
